A study of Mus musculus with 2 samples.

Results

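The oligosaccharyltransferase complex was followed through 10 of its genes in splenic dendritic cells (DC) from H2-Aa cit/cit and WT mice, namely Stt3a, Stt3b, Rpn1, Rpn2, Ddost, Dad1, Ostc, Krtcap2, Magt1 and Tusc3. They were taken by symbol from the 32285 genes of the single-cell table, and each symbol matched a single gene. The list was made with earlier results of these data known. The WT library (H2-Aa +/+) and the H2-Aa cit/cit library each came from 3 pooled naive female mice, which the labels give as 4 months old, although the study's methods state a younger range for experimental mice. The cit allele is an ENU-induced germline mutation of H2-Aa, which encodes the MHC-II α chain, in every cell of C57BL/6J mice, and the WT mice were littermates. DC were enriched from spleen by CD11c selection, sorted as live CD45.2+ CD11c+ cells and sequenced from the 3′ ends of transcripts as a single 10X Genomics library for each genotype, so the mice of a pool cannot be told apart.

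Oligosaccharyltransferase sits in the membrane of the ER and moves a preassembled glycan from its dolichol carrier to asparagine residues of proteins that enter the ER. STT3A and STT3B are its alternative catalytic subunits. STT3A complexes work at the protein translocation channel, to which OSTC and KRTCAP2 (KCP2) link them, and glycosylate chains while they are made. STT3B complexes carry MAGT1 or TUSC3, paralogous oxidoreductases, and act on sites that STT3A missed. RPN1, RPN2, DDOST (OST48) and DAD1 belong to both kinds of complex. DC are rich in glycoproteins of the cell surface and the endocytic pathway, and those with asparagine-linked glycans pass through this enzyme.

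The libraries held 7814 WT cells with 51020804 unique molecular identifiers (UMIs) and 11525 cit/cit cells with 72652201 UMIs, with medians of 5492 and 5633 UMIs per cell, and 31 cell barcodes occurred in both. H2-Aa, the mutated gene, checked the labels: its level, as UMIs per 1000000 UMIs of the library or class (CPM), was 5410 CPM in WT and 66.2 CPM in cit/cit cells, and it was lower in cit/cit cells in each class below. Cells were given to 9 classes by marker genes or, for low-ribosomal cells, by a small share of ribosomal protein UMIs. No marker gene was a member of the complex, and 87.0% of WT and 85.4% of cit/cit cells fell in these classes. With 1 library per genotype there is no replicate error and no test. Intervals are exact 95% intervals that cover counting error only, Poisson for levels, binomial for shares and conditional binomial for ratios. A ratio is that of cit/cit to WT after the UMIs of a class were summed and scaled to the class total, so it compares shares of the captured RNA, not molecules per cell. Levels were compared within a gene only.

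Markers that the gates did not use were compared with the class names. Irf8, a factor of cDC1 and pDC, stood at 1323 CPM in WT and 1458 CPM in cit/cit cDC1-like cells and at 19.8 and 21.2 CPM in Ffar2+ cDC2-like cells. Tcf4, a pDC factor, was at 3273 and 3391 CPM in pDC-like cells and at 687 and 638 CPM in Ccr2+ cDC2-like cells, the next highest class. However, 68.8% of WT and 57.6% of cit/cit pDC-like cells also passed the gate of another lineage, as did 27.8% and 40.3% of cDC1-like cells. The class of mature cells with cDC1 genes was not alike in the libraries, as Tmem123, a gene of mature DC, was at 1540 CPM in its 280 WT cells and 584 CPM in its 51 cit/cit cells. Ccr2+ cDC2-like cells also differed in Lyz2, with 571 CPM for cit/cit against 1404 CPM for WT, a log2 ratio of -1.30. That ratio was -1.57 in Ffar2+ cDC2-like cells. Even so, Lyz2, Csf1r and Irf4 were highest in the Ccr2+ class in both libraries. Sirpa, a cDC2 marker of the study, was highest in low-ribosomal cells, at 573 and 488 CPM. It reached 403 and 345 CPM in Ffar2+ cells but 208 and 158 CPM in Ccr2+ cells. The latter lay below the 229 and 250 CPM of mature cells without cDC1 genes, though with overlapping intervals in WT. Low-ribosomal cells have no marker of their own. They are the cells that passed no earlier gate and had less than 8% of UMIs from ribosomal protein genes. Of them, 146 of 1946 in WT and 473 of 2525 in cit/cit lay between 6% and that limit.

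In all cells together, 9 of the 10 members were more abundant in the cit/cit library and Tusc3 was not. The summed level of the 10 genes was 635 CPM (interval 628 to 642) in WT and 1206 CPM (1198 to 1214) in cit/cit cells, a log2 ratio of 0.92. The median log2 ratio of the members was 0.87, whereas that of the 3953 genes that reached 50 CPM in WT or cit/cit was -0.02. Above that limit, 9 members were measured and 9 were at least 25% higher in cit/cit cells, as were 14.2% of all genes. None was at least 20% lower, as 16.9% of all genes were. The mix of cells also differed. Mature cells without cDC1 genes had the lowest summed level of the members in both libraries. In cit/cit their interval overlapped that of low-ribosomal cells. These mature cells were 1804 of the WT and 1268 of the cit/cit cells, and Ffar2+ cDC2-like cells made up 20.4% and 35.1%. The log2 ratio of the sum was smaller than 0.92 in 7 of the 9 classes. Cells of other types differed as well, with erythroid genes at 388 CPM in WT and 171 CPM in cit/cit and neutrophil genes at 72.3 and 360.5 CPM in sum. Stt3a and Rpn1 reached 50 CPM through the cit/cit library alone, and Tusc3, the remaining member, stayed below it in both. Across single genes the log2 ratio ran from 0.49 for Stt3b to 1.60 for Krtcap2, which 15 of the 3953 genes reached or passed, Krtcap2 included.

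**Figure D1:**
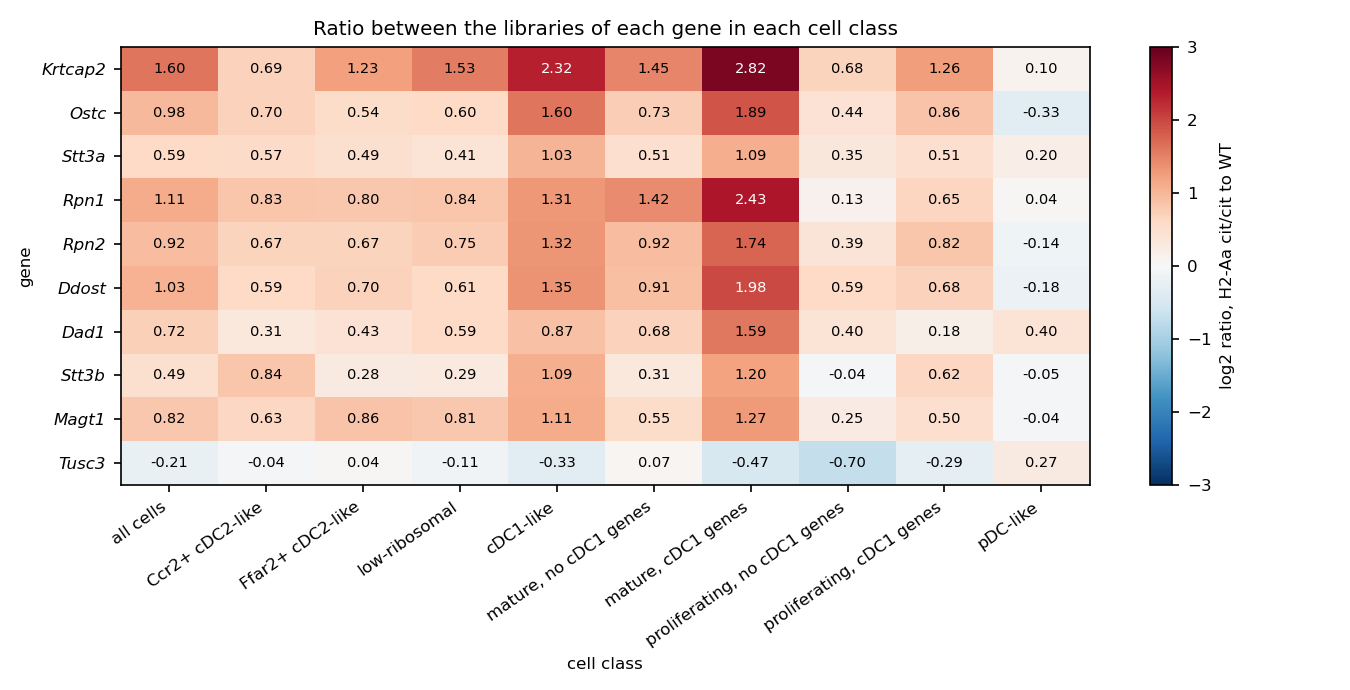
Log2 ratio of cit/cit to WT (color scale and number) for each of the 10 genes (rows) in all cells and in the 9 cell classes (columns), from summed UMIs of 1 library per genotype. Krtcap2 has the largest value of its column in 7 of 9 classes and Tusc3 the smallest in 8 of 9, and the pDC-like column lies near 0.

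Krtcap2 (ENSMUSG00000042747), the small subunit that joins STT3A complexes to the translocation channel, lies at chr3:89245966-89249906 on the plus strand of GRCm38. In cDC1-like cells it reached 120.4 CPM (interval 112 to 129.7) in WT and 603 CPM (586 to 619) in cit/cit, from 687 and 5182 UMIs. This is a 5.01-fold higher level, with a log2 ratio of 2.32 (2.21 to 2.44). In the same cells, 30 of 3555 genes, Krtcap2 among them, had a ratio at least as large.

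The libraries ordered the classes differently for Krtcap2. In WT it was highest in pDC-like cells at 269 CPM, though without cells that passed gates of 2 lineages, which left too few pDC-like cells, Ccr2+ cDC2-like cells were highest. Proliferating cells with cDC1 genes at 181 CPM and Ccr2+ cDC2-like cells at 174 CPM followed and did not differ beyond counting error, and neither did cDC1-like cells from proliferating cells without cDC1 genes (112 CPM). Ffar2+ cDC2-like cells came next at 87.1 CPM, followed by mature cells at 40.9 CPM without and 39.3 CPM with cDC1 genes, which did not differ beyond counting error, and low-ribosomal cells were lowest at 16.5 CPM. In cit/cit, cDC1-like cells were highest, followed by proliferating cells with cDC1 genes at 435 CPM. Behind them, pDC-like cells at 288 CPM, Ccr2+ cDC2-like cells at 282 CPM and mature cells with cDC1 genes at 277 CPM did not differ beyond counting error. Ffar2+ cDC2-like cells (204 CPM), proliferating cells without cDC1 genes (179 CPM), mature cells without cDC1 genes (112 CPM) and low-ribosomal cells (47.6 CPM) ended the order. In WT the highest class was 16.3-fold above the lowest, and in cit/cit 12.7-fold, the widest spread of the 10 genes in both libraries. That ranking rested on low-ribosomal cells, which no marker gene defines. Without them Rpn1 had the widest spread, 9.95-fold in WT and 6.38-fold in cit/cit.

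**Figure D2:**
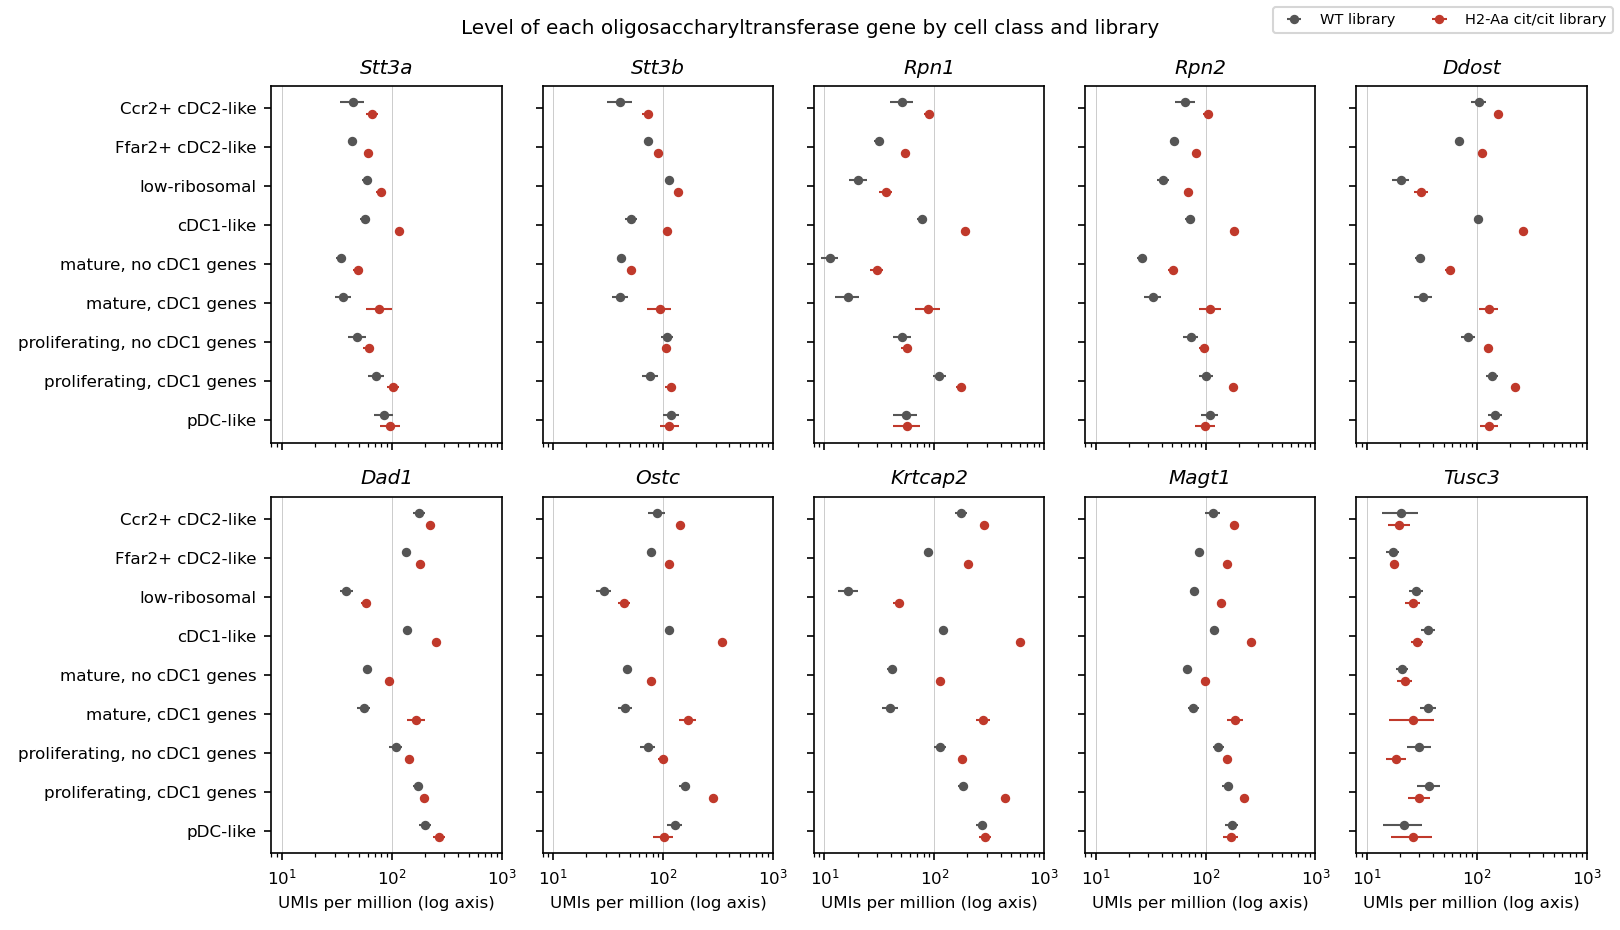
Level in CPM (UMIs scaled to the class total, log axis) of each of the 10 genes in the 9 cell classes, gray for the WT and red for the cit/cit library, 1 library each. Points are summed UMIs of a class and bars exact 95% Poisson intervals for counting error. Krtcap2 in cDC1-like cells lies at 120.4 CPM in WT and 603 CPM in cit/cit, whereas the points of pDC-like cells and those of Tusc3 largely overlap.

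Outside cDC1-like and pDC-like cells, the log2 ratio of Krtcap2 ran from 0.68 (0.47 to 0.89) in proliferating cells without cDC1 genes to 2.82 (2.50 to 3.13) in mature cells with cDC1 genes. It was 0.69 (0.50 to 0.90) in Ccr2+ and 1.23 (1.13 to 1.32) in Ffar2+ cDC2-like cells, intervals that do not overlap. Low-ribosomal cells gave 1.53 (1.19 to 1.88) and mature cells without cDC1 genes 1.45 (1.29 to 1.62). In pDC-like cells the levels were 269 CPM in WT and 288 CPM in cit/cit, and the interval of the ratio, -0.14 to 0.34 around 0.10, included equal levels.

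Single cells were compared at 1 depth. After each cell was thinned to 1500 UMIs, a Krtcap2 UMI was found in 18.7% (15.5% to 22.2%) of WT and 52.7% (48.7% to 56.7%) of cit/cit cDC1-like cells. At least 2 UMIs were found in 1.47% and 24.7%. Without thinning, where median depths were 8547 and 13715 UMIs, the shares were 57.4% and 89.8%. The thinned share was 11.03% and 23.0% in Ffar2+ cDC2-like cells, 26.2% and 30.9% in Ccr2+ cDC2-like cells and 29.1% and 41.5% in pDC-like cells, with overlapping intervals in the latter 2 classes. For pDC-like cells the other depths differed, with 52.4% in WT and 54.2% in cit/cit after thinning to 3000 UMIs and 84.8% and 77.1% without thinning. No class here is known to lack these ubiquitous genes. The lowest share was 2.32% (1.67% to 3.13%), in WT low-ribosomal cells of 2761.5 UMIs at the median, and the part of free RNA in these shares was not tested. Thinning left out 8 WT and 6 cit/cit cDC1-like cells, and 177 and 426 low-ribosomal cells.

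**Figure D3:**
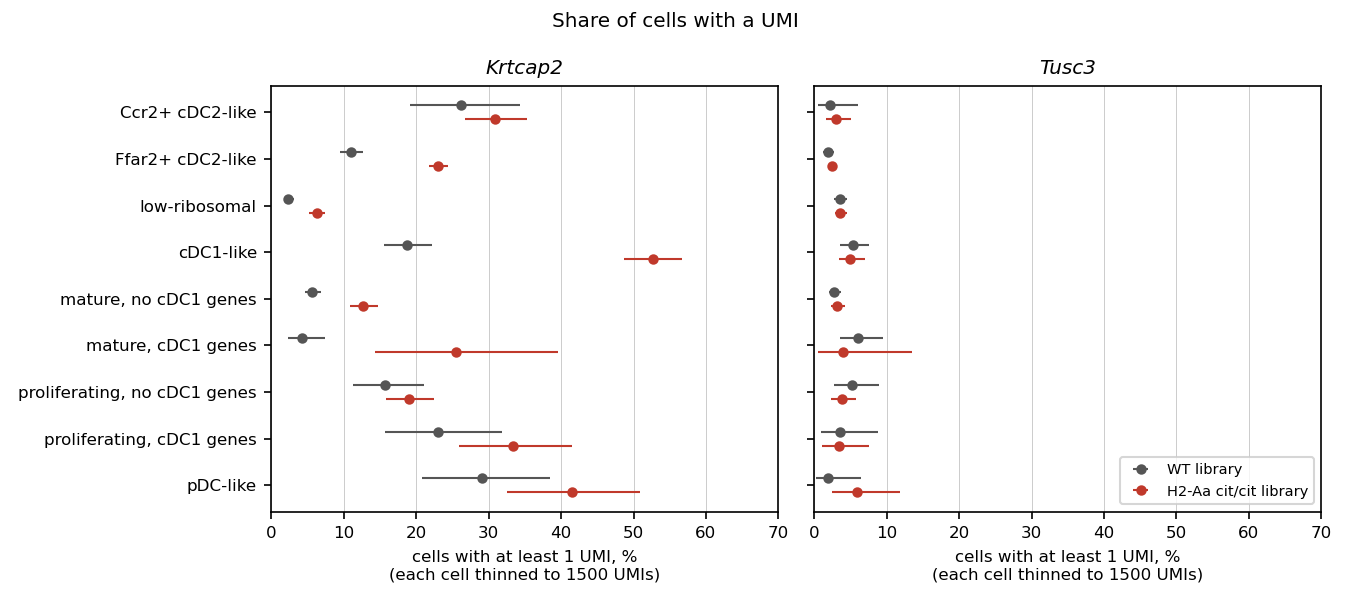
Share of cells (%) with at least 1 UMI of Krtcap2 (left) and Tusc3 (right) after thinning each cell to 1500 UMIs, by class, gray for WT and red for cit/cit, with exact 95% Clopper-Pearson intervals. The Krtcap2 share in cDC1-like cells is 18.7% in WT and 52.7% in cit/cit, and no Tusc3 share exceeds 6.07%.

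Promoter windows of 8 of the 10 members, 10 windows in all, were found in RefSeq tables of GRCm38.p6, each of 250 bases before and 50 after an annotated start. They were searched on both strands for letters of motifs known from ER stress genes: the ER stress response element ERSE (CCAAT, 9 bases of any kind, CCACG), ERSE-II (ATTGG, 1 base, CCACG), the core TGACGTGG, and CCAAT and CCACG alone, which overlap the first and second. Among the members, ERSE-II was found only in Krtcap2, in 1 of its 2 windows, and in 12 of all 32851 windows (0.0365%). It begins at base 18 of the transcript by the RefSeq start and lies in an exon of Krtcap2, in its 5′ UTR, in GENCODE. The windows of Krtcap2 overlap, at chr3:89246188-89246487 and chr3:89246223-89246522, and the motif lies just past the end of the first. The stretch is shown because this gene had the largest ratio, with the letters of the motif in capitals, at chr3:89246481-89246510 on the plus strand.
Krtcap2: gggacacggATTGGaCCACGgacggggcgt

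Neither the full ERSE nor the TGACGTGG core was found in a member's window, against 0.119% and 0.676% of all windows. With so few member windows, the absence of motifs this rare carries no information. CCAAT occurred in all 8 matched genes, against 41.1% of all genes with a window, and CCACG in 6 of the 8, against 35.5%. Ddost and Rpn1, subunits of both complexes, and Stt3b, which had the smallest ratio above 0 in all cells, are printed for comparison, with CCAAT and CCACG of either strand in capitals. The stretches lie upstream of the RefSeq start and outside GENCODE exons, at chr4:138304488-138304729 (plus strand), chr6:88084223-88084472 (plus strand) and chr9:115310469-115310718 (minus strand). All 3 hold CCAAT, including Stt3b, and a match describes these letters, not a bound site.
Ddost: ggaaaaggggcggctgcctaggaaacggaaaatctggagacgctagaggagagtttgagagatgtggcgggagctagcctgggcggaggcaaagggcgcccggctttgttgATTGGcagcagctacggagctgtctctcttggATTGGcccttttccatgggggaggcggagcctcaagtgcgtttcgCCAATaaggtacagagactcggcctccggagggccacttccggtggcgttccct
Rpn1: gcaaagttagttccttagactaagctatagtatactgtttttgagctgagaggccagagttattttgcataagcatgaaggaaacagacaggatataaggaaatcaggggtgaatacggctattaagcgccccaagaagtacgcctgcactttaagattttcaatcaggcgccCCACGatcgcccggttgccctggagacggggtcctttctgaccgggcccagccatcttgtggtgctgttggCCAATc
Stt3b: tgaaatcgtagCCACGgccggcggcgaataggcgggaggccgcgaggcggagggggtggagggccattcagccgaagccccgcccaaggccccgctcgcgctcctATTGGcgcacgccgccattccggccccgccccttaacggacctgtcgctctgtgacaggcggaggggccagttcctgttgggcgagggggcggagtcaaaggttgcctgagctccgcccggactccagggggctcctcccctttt

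Ostc (chr3:130695912-130709444, minus strand), the other STT3A-specific subunit, was second to Krtcap2 in cDC1-like cells. It reached 114 CPM (105.5 to 123) in WT and 346 CPM (334 to 359) in cit/cit, 3.03-fold higher. Proliferating cells with cDC1 genes had 157 and 286 CPM. In WT, Ostc was highest in those proliferating cells, and in cit/cit in cDC1-like cells. The remaining classes gave log2 ratios of 0.44 to 0.73, apart from mature cells with cDC1 genes at 1.89 and pDC-like cells at -0.33 (-0.72 to 0.05). pDC-like cells thus had the lowest ratio of Ostc, from 127 CPM in WT to 101 CPM in cit/cit.

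Among the catalytic subunits, Stt3a (chr9:36729344-36767679, minus strand) was 1.51-fold (1.44 to 1.59) and Stt3b (chr9:115242581-115310421, minus strand) 1.40-fold (1.34 to 1.46) higher in cit/cit cells overall. In cDC1-like cells Stt3a was at 56.9 and 116 CPM and Stt3b at 51.0 and 109 CPM, with intervals of the fold of 1.80 to 2.32 and 1.87 to 2.44. In Ffar2+ cDC2-like cells the differences were smaller, with 43.3 and 60.6 CPM for Stt3a and 73.3 and 88.9 CPM for Stt3b. Ccr2+ cDC2-like cells had 40.6 and 72.4 CPM of Stt3b, a log2 ratio of 0.84 (0.43 to 1.26) that was the largest of the 10 members in that class, although its interval overlapped those of the other 9. Proliferating cells without cDC1 genes had 108.5 and 105.5 CPM of Stt3b, with an interval that included equal levels.

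The balance of the catalytic pair differed more between classes than between libraries. Stt3a made up 52.8% (48.7% to 56.8%) of the UMIs of both genes in WT and 51.7% (49.4% to 53.9%) in cit/cit cDC1-like cells. It made up 34.7% (31.7% to 37.7%) and 36.6% (33.9% to 39.3%) in low-ribosomal cells. In each of the 9 classes the intervals of the libraries overlapped, which does not show that the shares were equal. Because capture of 3′ ends may differ between genes, a share of a pair is read only for its differences, not as a ratio of molecules.

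**Figure D4:**
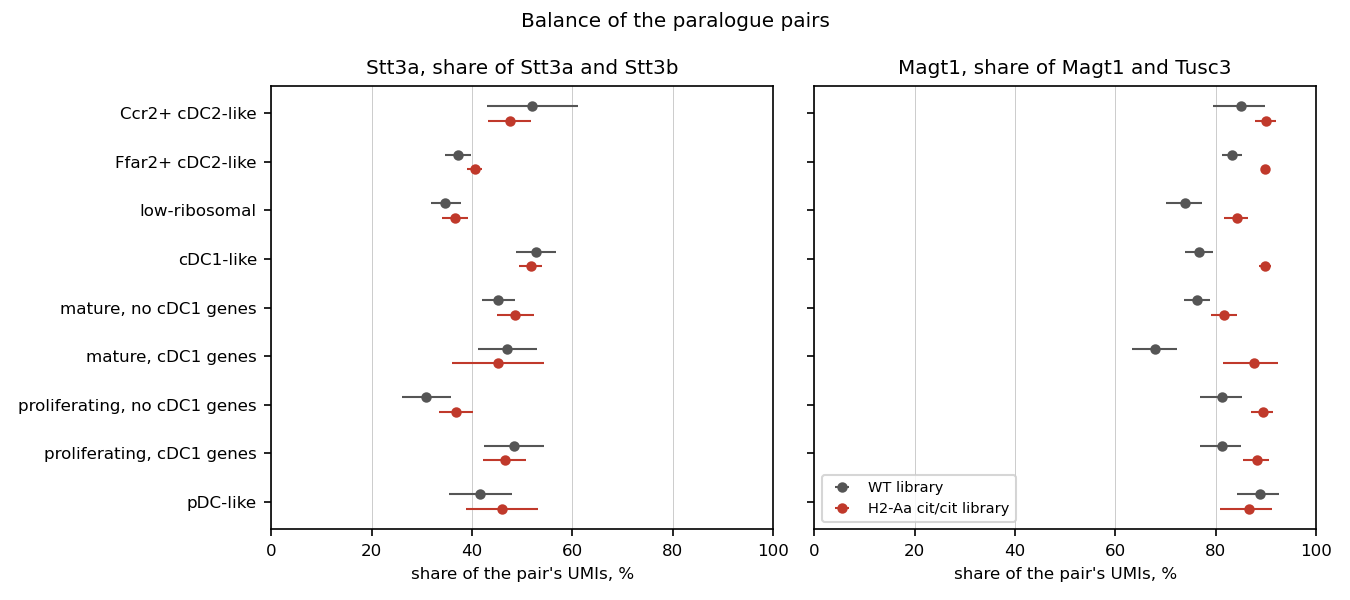
Share (%) of the UMIs of a paralogue pair that came from Stt3a (left) and from Magt1 (right), by class, gray for WT and red for cit/cit, with exact 95% binomial intervals. The Stt3a share in cDC1-like cells is 52.8% in WT and 51.7% in cit/cit, whereas the Magt1 share is 76.7% and 89.9%.

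Of the subunits that both complexes share, Rpn1 and Ddost showed the larger differences in all cells. Rpn1 (chr6:88084482-88105304, plus strand), a ribophorin, reached 34.6 CPM in WT and 74.8 CPM in cit/cit, 2.16-fold higher (2.05 to 2.28). Ddost (chr4:138304730-138312628, plus strand), the OST48 subunit, was at 62.0 and 127 CPM, 2.05-fold higher (1.96 to 2.13). Rpn2 (chr2:157279017-157326319, plus strand), the other ribophorin, had 51.4 and 97.4 CPM and a 1.89-fold difference (1.81 to 1.98). Dad1 (chr14:54235479-54254104, minus strand), a small membrane subunit named for its defender role against cell death, had 104 and 172 CPM and a 1.65-fold difference (1.60 to 1.70). These intervals place Dad1 below the other shared subunits.

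In cDC1-like cells the same subunits were between 1.83 and 2.56-fold higher. Ddost went from 103.7 to 265 CPM, Rpn1 from 76.9 to 190.3 CPM, Rpn2 from 72.2 to 179.7 CPM and Dad1 from 136 to 249 CPM. The ratios of Ddost, Rpn1 and Rpn2 lay within each other's intervals, at log2 values of 1.35, 1.31 and 1.32, and Dad1 was lower at 0.87 (0.75 to 0.99). In Ccr2+ cDC2-like cells Dad1 again had the smallest ratio of the 4, at 177 and 219.7 CPM, a log2 ratio of 0.31 (0.11 to 0.52).

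Rpn1 varied most among the shared subunits in WT, from 11.1 CPM (9.34 to 13.2) in mature cells without cDC1 genes to 111 CPM (96.4 to 127) in proliferating cells with cDC1 genes. In cit/cit the mature cells had 29.8 CPM, a log2 ratio of 1.42 (1.11 to 1.74) close to that of Krtcap2 in the same cells. In proliferating cells without cDC1 genes, Rpn1 reached 50.9 CPM in WT and 55.8 CPM in cit/cit, which did not differ beyond counting error.

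Magt1 (chrX:105968084-106011906, minus strand) and Tusc3 (chr8:39005845-39165114, plus strand), the paralogous subunits of STT3B complexes, went apart. Magt1 reached 93.9 CPM (91.3 to 96.6) in WT and 166 CPM (163 to 169) in cit/cit cells, 1.77-fold higher. Tusc3 reached 24.5 CPM (23.1 to 25.9) in WT and 21.1 CPM (20.1 to 22.2) in cit/cit cells, a log2 ratio of -0.21 (-0.32 to -0.11). Its level was below 50 CPM in every class and library, with 17.3 to 36.8 CPM in WT and 17.8 to 30.1 CPM in cit/cit.

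No class showed a Tusc3 ratio whose interval lay above 0. The interval lay below 0 in cDC1-like cells, from 36.1 to 28.7 CPM with a log2 ratio of -0.33 (-0.60 to -0.06), and in proliferating cells without cDC1 genes, from 30.2 to 18.5 CPM with a log2 ratio of -0.70 (-1.18 to -0.22). Among cells of 3000 to 12000 UMIs the cDC1-like value was 0.23, where the median of all genes was 0.18, so its sign rested on cells outside that range of depth. The level of Magt1 in cDC1-like cells was 119 CPM in WT and 257 CPM in cit/cit.

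Magt1 therefore took a larger share of the UMIs of the pair in cit/cit cells. In cDC1-like cells it was 76.7% (73.8% to 79.5%) in WT and 89.9% (88.7% to 91.1%) in cit/cit, and in Ffar2+ cDC2-like cells 83.3% (81.2% to 85.3%) and 89.8% (88.9% to 90.7%). In low-ribosomal cells the share was 73.8% (70.2% to 77.2%) and 84.2% (81.8% to 86.4%). pDC-like cells, with 88.9% and 86.7%, had overlapping intervals, as did Ccr2+ cDC2-like cells with 85.1% and 90.1%.

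Class by class, cDC1-like cells held the largest joint difference apart from mature cells with cDC1 genes. The 10 members together were at 886 CPM (862 to 911) in WT and 2343 CPM (2311 to 2376) in cit/cit, a log2 ratio of 1.40, from 554 and 630 cells. Of the 9 members at 50 CPM, 9 were at least 25% higher, beside 18.1% of the 3555 genes measured there. The median of the 10 was 1.21, and that of all those genes -0.04. Thinned cDC1-like cells contained on average 1.26 member UMIs in WT and 3.36 in cit/cit, and at least 3 of the 10 genes were found in 11.5% and 53.4% of cells.

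Both cDC2-like classes had smaller differences. In Ccr2+ cells, 144 in WT and 462 in cit/cit, the 10 members summed to 881 and 1333 CPM, with a log2 ratio of 0.60 (0.51 to 0.69). In Ffar2+ cells, 1591 and 4051, they summed to 669 and 1067 CPM, with a log2 ratio of 0.67 (0.64 to 0.71). In each class 8 members were at least 25% higher, beside 9.27% of all genes in Ccr2+ and 5.71% in Ffar2+ cells. Of those 8, Stt3a and Stt3b in Ccr2+ cells and Stt3a and Rpn1 in Ffar2+ cells reached 50 CPM in cit/cit alone. The members short of that difference at 50 CPM were Dad1 in Ccr2+ cells and Stt3b in Ffar2+ cells.

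Low-ribosomal cells had 444 CPM in WT and 667 CPM in cit/cit of the members in sum, with a log2 ratio of 0.59 (0.51 to 0.66). There 5 of the 10 members reached 50 CPM and 4 were at least 25% higher, beside 9% of all genes, but Rpn2 and Dad1 among the 4 reached 50 CPM in cit/cit alone. Stt3b was at 112 and 137 CPM in these cells, whereas Krtcap2, Ddost, Ostc and Dad1 were lowest there in both libraries.

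Mature cells without cDC1 genes had 380 and 643 CPM of the 10 members, a log2 ratio of 0.76 (0.70 to 0.82), and 6 of 7 members at 50 CPM were at least 25% higher, beside 11.9% of all genes. Only 2 of these 6 had 50 CPM in WT, and Krtcap2, Ostc, Ddost and Rpn2 entered through their cit/cit level, so the count is no more than a description. In mature cells with cDC1 genes the sum went from 412 to 1320 CPM, with 9 members higher, of which 7 reached 50 CPM in cit/cit alone. Here, however, 41.6% of all genes were at least 25% higher, and Irf8 was 1.70-fold higher in cit/cit. Kinds of cell and levels per cell cannot be told apart in the 51 cit/cit cells of that class.

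Proliferating cells separated by their cDC1 genes. Without them, the sum of the members was 818 CPM in WT and 1039 CPM in cit/cit, a log2 ratio of 0.34 (0.27 to 0.42), and 6 members were at least 25% higher, beside 7.52% of all genes, Stt3a having reached 50 CPM in cit/cit alone. With them, it was 1207 and 1967 CPM, a log2 ratio of 0.71 (0.63 to 0.78), and 8 members were higher, beside 14.3% of all genes. The exception at 50 CPM in the latter was Dad1, with 172 and 195.5 CPM and a log2 ratio of 0.18 (-0.02 to 0.39).

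pDC-like cells had the highest summed level of the WT classes, 1306 CPM (1242 to 1372), and 1347 CPM (1273 to 1424) in cit/cit, from 112 and 118 cells. The log2 ratio was 0.04 (-0.06 to 0.15), an interval that overlapped that of no other class. With cells assigned by marker z-score, in 428 WT and 477 cit/cit cells, it was 0.25 and 3 members were at least 25% higher, beside 7.06% of all genes, so the value near 0 depended on which cells were called pDC-like. Of 9 members at 50 CPM, 1 was at least 25% higher, Dad1 from 201 to 266 CPM, beside 11.7% of all genes. Ostc alone was at least 20% lower, beside 12.2% of all genes. The member and gene medians were both 0.00. Of the 10 intervals, 1 lay above 0 and none below.

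**Figure D5:**
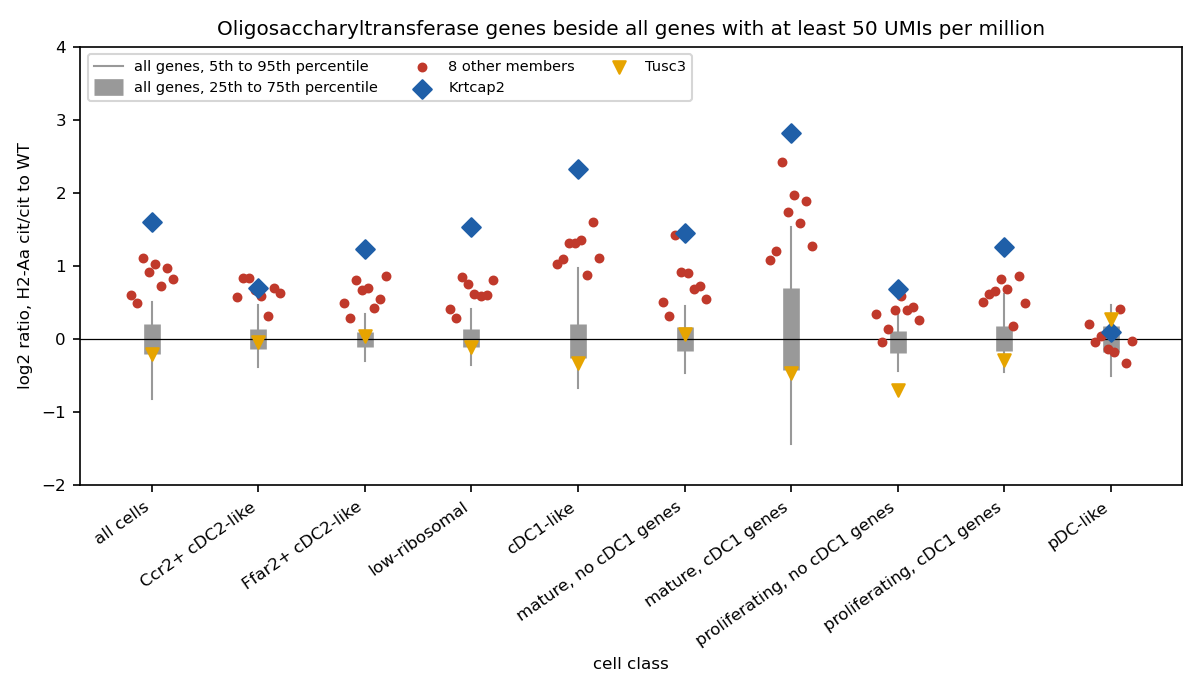
Log2 ratio of cit/cit to WT (vertical axis) of the 10 genes in all cells and 9 classes, beside the 5th to 95th (thin line) and 25th to 75th percentile (bar) of all genes that reached 50 CPM in WT or cit/cit. In cDC1-like cells Krtcap2 (diamond) lies at 2.32, the 8 other members (circles) between 0.87 and 1.60 and Tusc3 (triangle) at -0.33, whereas in pDC-like cells the members lie on both sides of 0.

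Markers of other cell types differed between the libraries in some classes, and their part in the values above was not tested. In cDC1-like cells, 4 of 6 plasma cell genes were at 0 in WT and 2 of 6 in cit/cit. The list summed to 1.75 CPM in WT and 138 CPM in cit/cit. Derl3, an ER degradation factor, gave 1.05 and 136.6 CPM of it, with UMIs in 1.08% of WT and 57.6% of cit/cit cells, while Sdc1 and Pou2af1 were at 0 in both libraries. Macrophage genes in cDC1-like cells summed to 38.9 and 85.8 CPM, of which Hmox1, a heme oxygenase, was 19.97 and 71.0 CPM and C1qa 1.93 and 1.98 CPM. Neutrophil genes there summed to 0.526 and 15.0 CPM. Erythroid genes went the other way, from 58.7 to 3.26 CPM in cDC1-like cells and from 127 to 3.61 CPM in proliferating cells with cDC1 genes. In low-ribosomal cells, neutrophil genes summed to 479 and 92.2 CPM and erythroid genes to 2084 and 1939 CPM. B, T and NK cell genes each summed to less than 40 CPM in every class.

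Other genes of the glycosylation pathway were taken from lists. Of 3 further genes, Tmem258, a small subunit of the enzyme, was at 92.0 and 151 CPM in all cells. Mlec, which encodes malectin, a glycan-binding protein found with RPN1, was at 53.6 and 91.9 CPM. Ost4, the smallest subunit, had 111 and 106 CPM, a log2 ratio of -0.07. In cDC1-like cells Ost4 was lower in cit/cit, from 178 to 134 CPM, with a log2 ratio of -0.40 (-0.52 to -0.28), while Tmem258 and Mlec were at 0.67 and 0.73.

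Upstream of the enzyme, the genes that build the dolichol-linked glycan differed less. Of 27 such genes, 2 reached 50 CPM in all cells. Dpm3, a subunit of dolichol-phosphate mannose synthase, was 38.8 CPM in WT and 55.4 CPM in cit/cit, and so reached 50 CPM through cit/cit alone. Dpm1, the catalytic subunit of that synthase, was 105 and 106 CPM. The median log2 ratio of all 27 was 0.25 in all cells and 0.48 in cDC1-like cells, beside 0.87 and 1.21 for the 10 members of the complex.

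Downstream, 11 of 18 genes of glycan trimming and lectin quality control reached 50 CPM in all cells, and 7 of them were at least 25% higher, beside 14.2% of all genes. The lectin chaperone Calr was at 256 and 614 CPM, Lman1, a cargo lectin of ER exit, at 26.7 and 57.2 CPM, and Lman2, a related lectin, at 64.0 and 109 CPM. Lman1, counted among the 7, reached 50 CPM through the cit/cit library alone. The Golgi mannosidase genes Man1a and Man1a2 were slightly lower, at 844 and 777 CPM and at 76.3 and 68.7 CPM. The median of the list was 0.80 in cDC1-like and -0.04 in pDC-like cells.

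The levels most like those of Krtcap2 over the 9 classes of both libraries, 18 points, were those of Tmed2 (Pearson's r 0.98 on the log2 scale of CPM plus 5), Tmed9 (0.97), Srp9 (0.96), Sec61g (0.94) and Erp29 (0.94), of 1736 genes compared. Tmed2 and Tmed9 encode cargo receptors of early secretory vesicles, Srp9 a signal recognition particle protein, Sec61g a subunit of the translocation channel and Erp29 an ER luminal protein. Only genes with at least 50 CPM in each class of both libraries were compared with Krtcap2. Krtcap2 itself lay below that limit in low-ribosomal cells, at 16.5 CPM in WT and 47.6 CPM in cit/cit. Among the other members, Magt1 alone met the limit and was not among these 5 genes. The rest of the complex could not enter, so their absence carries no information. The points share a library and depth, so the correlations are descriptive.

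Annotated neighbors overlap some members. Trim46 and Mroh8 lie on the opposite strand at Krtcap2 and Rpn2 and the miRNA gene Mir6376 opposite Rpn1. On the same strand as the member, Gm42998, an unverified transcript, overlaps Ostc and a processed pseudogene lies within Stt3b, so strand cannot separate these. The counts do not show how many UMIs came from these neighbors.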

How the data were processed

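UMIs of each library were counted by the authors with Cell Ranger 5.0.1 on the GRCm38 build, and they deposited the raw UMI counts of every gene in every cell. The submitters' notes also name Seurat. The gene annotation and the use of intronic reads are not given in the sources used here. Members, gene lists, gates and alternatives were chosen with earlier results of these data known.

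All deposited cells were kept, and doublets were not removed. A cell took the first gate it passed, in the order plasma (4 of 6 genes), B, T, NK, neutrophil, macrophage (4 of 7), monocyte, pDC, mature, proliferating and cDC1 (3 genes where not given), with mature and proliferating cells split by 2 cDC1 genes. Next came cells below 8% ribosomal UMIs, then 2 genes of the Ccr2+ (with a Ccr2 UMI) or Ffar2+ cDC2 list. A class needed 50 cells in each library. Sums and intervals were computed with Python 3.11.15, numpy 2.4.6, scipy 1.17.1 and pandas 2.3.3, figures with matplotlib 3.10.9, and the ratio intervals were tested on simulated data. Shares came from cells thinned once to 1500 UMIs with a fixed seed. Counts of genes used a minimum of 50 CPM in either library and a 1.25-fold limit. Named pathway genes were the 3 highest and 2 lowest ratios of each list in all cells at that minimum. Positions came from GENCODE vM21 and promoters from RefSeq (GRCm38.p6). Alternatives were other scalings, stricter gates, marker z-scores, and leaving out cells by mitochondrial share, second gate, depth or immunoglobulin UMIs.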

Additional observations from a re-analysis of the deposited data

How the results depend on the processing

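Scaling by median-ratio size factors, stricter gates, and leaving out cells over 10% mitochondrial UMIs or with immunoglobulin UMIs moved none of the log2 ratios outside counting error and no count of members by over 1.5 times. Beyond counting error, 10 of 80 log2 ratios moved in cells with 3000 to 12000 UMIs, 10 of 100 as means per cell, 7 of 100 without ribosomal and mitochondrial genes in the denominator, 6 of 70 with marker z-scores and 5 of 80 without cells of 2 lineages, and 1 reversed. The counts for stricter gates and marker z-scores, of ratios and of the levels below, include all cells together, which no gate can move. Without ribosomal and mitochondrial genes, the median of all genes in mature cells with cDC1 genes was 0.31 instead of 0.15. The levels themselves depended more on the processing. Of the CPM levels, 158 of 200 moved beyond counting error without ribosomal and mitochondrial genes in the denominator, 55 of 140 with z-scores, 46 of 200 as means per cell, 39 of 160 in cells with 3000 to 12000 UMIs, 24 of 160 without cells of 2 lineages, 14 of 180 with stricter gates and 1 of 200 with size factors. Under each of the 9 alternative scalings and choices of cells, Krtcap2 in the cit/cit library was highest in cDC1-like cells. However, 6 classes remained with marker z-scores and 7 in cells with 3000 to 12000 UMIs. Proliferating cells with cDC1 genes, otherwise the next highest class, gave no value in either. The cause of the following shifts was not tested. For Krtcap2 in all cells, the log2 ratio of 1.60 became 1.67 without ribosomal and mitochondrial genes in the denominator, 1.48 as a mean per cell of counts per 10000, and 1.43 in cells with 3000 to 12000 UMIs. In cDC1-like cells its 2.32 became 2.47 without cells that passed gates of 2 lineages and 2.14 in cells with 3000 to 12000 UMIs, and the Tusc3 ratio of -0.33 reversed to 0.23 there. At that depth the median of all genes in cDC1-like cells was 0.18 instead of -0.04. Of all genes, 33.4% were then at least 25% higher there, instead of 18.1%. In pDC-like cells Krtcap2 gave 0.43 when cells were assigned by marker z-score, which made that class 428 WT and 477 cit/cit cells. The number of pDC-like members at least 25% higher, 1, was then 3, beside 7.06% of all genes, and it was 0 with means per cell, beside 15.4%. With a minimum of 10 CPM, low-ribosomal cells had 8 members at least 25% higher instead of 4, beside 14.3% of all genes instead of 9%, since more members were counted. Low-ribosomal cells could not be assigned by z-score, and classes left with fewer than 50 cells in a library, such as pDC-like cells without those of 2 lineages, gave no value. No paired analysis was possible because each genotype has 1 library. Depth limits Tusc3 most, with 19 to 77 UMIs in the smaller classes of the cit/cit library.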

Other observations

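Cells that passed no gate, 633 in WT and 1238 in cit/cit, belong to no class above. Krtcap2 was at 106.8 CPM (interval 92.5 to 122) in WT and 292 CPM (279 to 306) in cit/cit ungated cells, a log2 ratio of 1.45 (1.24 to 1.67). Tusc3 was at 15.3 and 14.8 CPM, with an interval that included equal levels, and the other 8 members had log2 ratios of 0.33 for Dad1 to 1.12 for Rpn1. The median depth of these cells was 968 UMIs in WT and 4953.5 UMIs in cit/cit.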
